A study of Mus musculus with 36 samples.

Results

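Eosinophils, granulocytes that arise in the bone marrow and pass through the blood into tissues, were compared between 4 barrier tissues (lung, skin, colon and small intestine) and 3 other sites (bone marrow, blood and spleen). The comparison used 24 of the 36 samples of the series, of which 13 came from barrier tissues (3 lung, 3 skin, 3 colon and 4 small intestine) and 11 from the other sites (3 bone marrow, 4 blood and 4 spleen). All 24 held total eosinophils, taken at steady state from wildtype C57BL/6 animals of 8 to 12 weeks, males and females pooled, with no treatment or allele that differed between the sites. How the cells were released from each tissue is not given in the sources used here, and its part in the differences below was not tested. The mean of the 4 barrier tissue means was set against the mean of the 3 other tissue means, and the genes described here are above all those that moved the same way in all 12 pairs of a barrier tissue with marrow, blood or spleen. The 12 pairs share libraries and are not independent of each other.

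Eosinophils leave the marrow as mature cells whose granules already hold eosinophil peroxidase, major basic protein and ribonucleases, and the genes for these proteins are transcribed mainly in precursors. In tissues they can make cytokines and chemokines. NF-kappaB is a family of transcription factors held in the cytoplasm by inhibitors such as IκBα (Nfkbia), and its targets include chemokines, cytokines, survival genes and the inhibitors themselves.

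Values were TPM (transcripts scaled to library total), which divide reads by transcript length, so that levels of different genes can be set side by side. TPM keeps no sequencing depth, and the depth behind these values is unknown. Differences are on the log2(TPM + 1) scale, which understates changes of low genes, and were tested with limma, two-sided, with Benjamini-Hochberg adjustment over 9806 genes at a threshold of 0.05. Whether libraries of a tissue stem from different animals is not in the labels, and the p-values therefore rest on a spread that may be technical. The median gene changed by -0.155, and changes in the contrast are given relative to it, with their standard error (SE), whereas differences of single tissue pairs are not shifted and tests are against 0. Where a gene's values are given as 3 numbers, these are the lowest, the median and the highest of the 13 barrier libraries or of the 11 libraries of marrow, blood and spleen. In bulk samples, fewer cells of a type and less RNA per cell cannot be told apart.

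In the contrast 2192 genes (22.4%) were called higher in barrier tissues and 3047 (31.1%) lower. Of these, 810 genes (8.26%) were higher in all 12 pairs by sign and 976 (9.95%) were lower in all 12 by sign. When every one of the 12 pairs also had to pass the test, taking the largest of the 12 p-values of a gene, 191 genes (1.95%) were called higher in all 12 and 8 (0.0816%) lower in all 12. These shares of all genes tested are the background for the list counts below. A list near them moved no more often than genes at large. Every barrier library lay above every library of marrow, blood and spleen for 281 genes (2.87%) and below every one for 69 genes (0.704%). With the 7 tissue means as the units, 4 against 3, so that the spread is that between tissues, 236 genes (2.41%) were higher and 44 (0.449%) lower, and these included 171 of the 191 and 5 of the 8.

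The uniform rises were larger than the uniform falls. For 194 genes that rose in all 12 pairs, even the weakest pair differed by at least 1 on the log2 scale, against 39 genes that fell in all 12, and the corresponding numbers were 85 and 1 at 2, and 34 and 0 at 3. A weakest pair of at least 4 was found for 16 rises. The 191 genes called higher in all 12 had a median change of 3.1 and a median level of 184 TPM over the barrier tissue means. Of these, 185 had no overlap between the sides, which their choice from the same libraries favours. The 8 genes called lower in all 12 had a median change of -1.54 and a median level of 156 TPM over the tissue means of marrow, blood and spleen. By sign in all 12, the 810 rises had a median change of 1.62 and a median level of 59.8 TPM over the barrier tissue means. The 976 falls by sign had a median change of -0.92 and a median level of 17.7 TPM over the tissue means of marrow, blood and spleen.

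**Figure D1:**
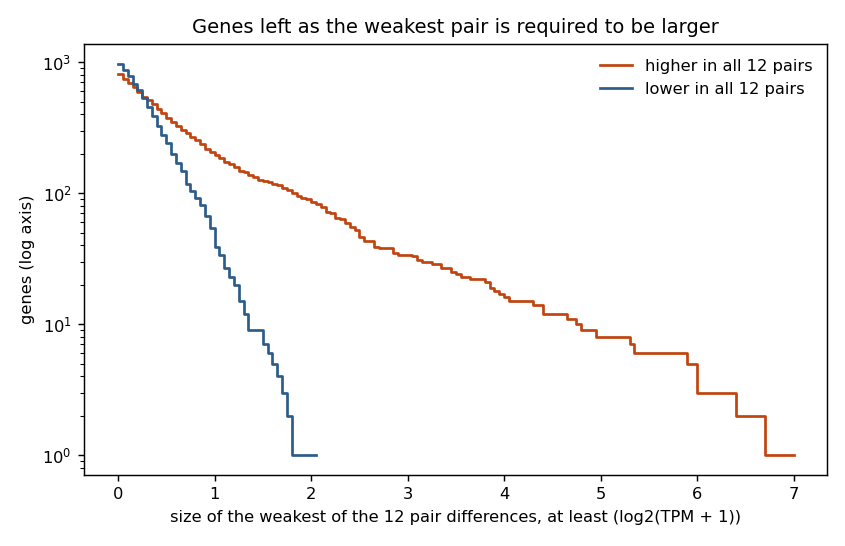
Number of genes called in the contrast and moving the same way in all 12 pairs (vertical axis, log scale) against the size that the weakest of the 12 pair differences had to reach (horizontal axis, log2(TPM + 1)). At 1 or more, 194 rises and 39 falls remain, and at 3 or more 34 rises and no fall.

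Lung stood apart in gene detection. Lung libraries had 7770 to 7876 genes at 1 TPM or more, against 8659 to 8922 in the other barrier libraries, 9248 to 9325 in marrow and 8539 to 8856 in blood and spleen. In the 3 pairs with lung the median gene differed by -0.587 to -0.426, and in the other 9 pairs by -0.031 to 0.169. The part of this in the falls was not tested. Without lung, 345 genes were called higher and 96 lower in the 9 pairs left. Without bone marrow 245 were called higher and 86 lower in the pairs then left. Fewer pairs make the rule easier to meet.

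The eosinophil label was checked against marker genes. Siglecf, the receptor by which mouse eosinophils are usually gated, had 105, 221 and 347 TPM in barrier libraries and 141, 219.7 and 317 TPM in marrow, blood and spleen, and did not pass the test in the contrast (limma, adjusted p = 0.837), though with quantile normalization it was lower by 0.298 on the log2 scale (adjusted p = 0.0141). The eotaxin receptor gene Ccr3 (309 to 1103 TPM in barrier libraries, 274 to 1590.1 TPM in the others) and the interleukin 5 receptor gene Il5ra (24.5 to 98.9 TPM in barrier libraries and 50.7 to 115 TPM in the other libraries) were present in every library. Adgre1, which encodes F4/80, had 281 to 1198 TPM in barrier libraries and 158 to 428 TPM in the other libraries. Siglecf, Ccr3, Il5ra and Adgre1 were thus present at all 7 sites. The granule protein genes Epx and Prg2, also planned as markers, were far higher in marrow than in barrier tissues, as given below. Of 20 measured eosinophil identity genes 9 were called higher and 8 lower in the contrast, beside 22.4% and 31.1% of all genes. In all 12 pairs by sign, 3 of them rose and 0 fell.

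The upstream sequences of 6 uniform rises are shown here because the NF-kappaB list, described below, had the largest share of members called in all 12 pairs. They are 3 chemokine genes, the NF-kappaB inhibitor gene Nfkbia, and Il1b and Acod1, the 2 genes with the largest weakest-pair rise. These 6 do not stand for the share of rises with a kappaB match. Each is the 250 bases before the start site in RefSeq (GRCm38.p6, the assembly also called mm10), 5′ to 3′ on the strand of the gene, and capitals mark letters that match the kappaB consensus on either strand. Overlapping matches are marked as 1 run.
Cxcl2, chr5:90903649-90903898, plus strand: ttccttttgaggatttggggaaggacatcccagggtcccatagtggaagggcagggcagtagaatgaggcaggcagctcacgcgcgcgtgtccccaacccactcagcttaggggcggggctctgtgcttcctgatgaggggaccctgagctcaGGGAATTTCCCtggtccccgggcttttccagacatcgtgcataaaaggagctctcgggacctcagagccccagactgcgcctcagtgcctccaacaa
Cxcl3, chr5:90785851-90786100, plus strand: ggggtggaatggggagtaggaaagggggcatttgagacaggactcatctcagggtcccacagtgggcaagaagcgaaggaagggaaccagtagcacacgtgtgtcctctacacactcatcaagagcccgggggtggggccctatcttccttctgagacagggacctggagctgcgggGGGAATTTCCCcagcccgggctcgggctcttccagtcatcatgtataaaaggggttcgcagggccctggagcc
Cxcl10, chr5:92348890-92349139, minus strand: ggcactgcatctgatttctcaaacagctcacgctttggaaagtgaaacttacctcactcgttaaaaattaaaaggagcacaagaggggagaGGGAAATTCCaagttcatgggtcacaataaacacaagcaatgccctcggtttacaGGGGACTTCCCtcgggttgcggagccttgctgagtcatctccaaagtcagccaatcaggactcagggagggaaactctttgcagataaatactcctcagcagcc
Nfkbia, chr12:55492648-55492897, minus strand: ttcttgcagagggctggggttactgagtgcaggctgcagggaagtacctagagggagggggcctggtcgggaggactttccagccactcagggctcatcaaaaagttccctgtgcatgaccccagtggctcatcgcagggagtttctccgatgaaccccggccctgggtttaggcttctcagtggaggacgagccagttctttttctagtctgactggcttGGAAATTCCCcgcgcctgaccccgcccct
Il1b, chr2:129371140-129371389, minus strand: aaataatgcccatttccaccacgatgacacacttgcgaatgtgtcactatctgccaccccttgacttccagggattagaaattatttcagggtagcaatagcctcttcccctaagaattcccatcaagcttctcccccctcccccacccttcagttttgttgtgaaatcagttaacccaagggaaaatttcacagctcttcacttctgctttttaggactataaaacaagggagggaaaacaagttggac
Acod1, chr14:103046762-103047011, plus strand: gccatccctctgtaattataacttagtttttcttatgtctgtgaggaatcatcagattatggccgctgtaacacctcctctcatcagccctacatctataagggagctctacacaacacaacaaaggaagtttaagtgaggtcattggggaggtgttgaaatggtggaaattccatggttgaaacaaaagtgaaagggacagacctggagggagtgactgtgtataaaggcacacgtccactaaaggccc
Il1b and Acod1 have no match in this window, which says only that these letters are not in it. Among the largest weakest-pair rises with a RefSeq promoter, only Cxcl2, Cxcl3 and Cxcl10 had a match. Ccl3, Clec4e, Ifitm1, Ptgs2, Il1a, Slc2a6 and Bcl2a1d had none. Of the NF-kappaB list, Rela, Nfkbib, Birc3, Traf1 and Icam1 had none, and Bcl3 matched only after its start. Nfkb2, Rel, Nfkbid, Nfkbie and Tnfaip3 had a match before some or all of their start sites. Cxcl2 and Cxcl3 share a run of the same letters, 97 and 73 bases before the start. A wider window of 250 bases before to 50 after the start was searched for all genes with a promoter in the RefSeq table. In it the kappaB consensus was found for 40 of 159 genes called higher in all 12 pairs (25.2%), 129 of 652 genes higher by sign in all 12 (19.8%), 80 of 789 genes lower by sign in all 12 (10.1%) and 962 of all 7962 genes tested (12.1%). Counted over all 10140 promoters of the genes tested, some of which have several, the share was 10.3%. The AP-1 motif TGACTCA was found for 9.43%, 6.9%, 2.79% and 4.33% of the same 4 sets, and the cAMP response element TGACGTCA for 3.77%, 7.21%, 1.9% and 3.73%. The median GC content of the promoters was 61.3%, 62.0%, 61.3% and 60.8%. A match is a description of letters and not a binding site.

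Interleukin 1 genes were the leading cytokines. Il1b (chr2:129364570-129371139, minus strand, mm10), which encodes interleukin 1β, had 608, 1785 and 5479 TPM in barrier libraries, against 0.98, 4.63 and 19.8 TPM in marrow, blood and spleen. All barrier libraries were high and none overlapped with the others. By tissue it averaged 1615 ± 334 TPM in lung (SD, n = 3), 1170.3 ± 518 TPM in skin (SD, n = 3), 1803 ± 226 TPM in colon (SD, n = 3) and 4774 ± 1035 TPM in small intestine (SD, n = 4), against 1.99 ± 0.943 TPM in marrow (SD, n = 3), 4.91 ± 2.88 TPM in blood (SD, n = 4) and 8.73 ± 7.41 TPM in spleen (SD, n = 4). Its change was 8.75 with an SE of 0.21 (limma, adjusted p = 1.51e-21), and the weakest pair, skin against spleen, differed by 7.04. Small intestine was the highest site and skin the lowest of the barrier sites.

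Il1a, the gene of interleukin 1α, had 24.1, 563 and 2234 TPM in barrier libraries and 0.15, 1.1 and 2.17 TPM in the others. Skin was again the lowest barrier tissue, at 58.6 TPM against 1722 TPM in small intestine. Il1rn, which encodes the antagonist of the same receptor, had 1211, 2334 and 5706 TPM in barrier libraries and 39.8, 47.4 and 97.8 TPM in the others. Its level outside barrier tissues was thus above that of Il1b, and it rose by 5.49. Tnf, the tumour necrosis factor gene, had 63.5, 146 and 355 TPM in barrier libraries and 0, 3.4 and 8.58 TPM in the other libraries. Agonist and antagonist genes of the interleukin 1 system were both called in all 12 pairs. Of 23 measured cytokine and growth factor genes, 14 were called higher and 4 lower in the contrast, 7 rose and 2 fell in all 12 by sign, and Il1a, Il1b, Il1rn and Tnf were called higher in all 12. The median change of the 23 was 1.04. Tnfsf13, a TNF family ligand gene, and Flt3l, a growth factor gene for progenitors, fell in all 12 by sign, by 1.45 and 0.80.

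Cytokine receptor genes rose as well. Il1r2, a decoy receptor for interleukin 1, had 2407 TPM in small intestine, 435 TPM in colon, 124 TPM in lung and 30.9 TPM in skin, against 18.1 TPM in marrow, 1.6 TPM in blood and 2.25 TPM in spleen. It was higher in all 12 pairs by sign, but the weakest pair, skin against marrow, differed by 0.72 and the test over all 12 was not passed. Of 32 receptor genes, 22 were called higher and 6 lower, 14 rose and none fell in all 12 by sign, and Il2rg, Tnfrsf1b, Il10rb and Ifngr2 were called in all 12. Il2rg, the common gamma chain, had 154, 280.1 and 551 TPM in barrier libraries and 18, 25.9 and 45.4 TPM in the others. The chain shared by the receptors of interleukin 5, interleukin 3 and GM-CSF, Csf2rb, had 161, 499.5 and 951 TPM in barrier libraries and 50.2, 117 and 155 TPM in the other libraries, with no overlap, and rose by 2.36. Its partner Il5ra, which gives specificity for interleukin 5, was higher in 4 of 12 pairs and lower in the others.

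Chemokine genes were among the largest rises. Cxcl2 (chr5:90903871-90905938, plus strand) had 1566, 5215 and 11813 TPM in barrier libraries, against 2.57, 9.11 and 36.3 TPM in marrow, blood and spleen. Of the 191 genes called higher in all 12 it had the largest change, 8.81 with an SE of 0.18 (limma, adjusted p = 1.41e-22). Cxcl3 (chr5:90786103-90789600), which lies nearby and like Cxcl2 encodes a ligand of CXCR2, had 119, 664 and 1794 TPM in barrier libraries and 0, 1.22 and 2.46 TPM in the others. Cxcl10 (chr5:92346638-92348889, minus strand), a ligand of CXCR3, had 68.7, 105 and 188 TPM in barrier libraries and 0, 0 and 2.61 TPM in the others. Its 4 barrier means lay between 90.5 TPM in skin and 152 TPM in colon.

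Ccl3 and Ccl4, adjacent chemokine genes on chromosome 11, were highest in small intestine. Ccl4 averaged 8154 ± 383 TPM there (SD, n = 4), with 818 TPM in colon, 498 TPM in lung and 165 TPM in skin, against 2.17 TPM in marrow, 12.6 TPM in blood and 8.26 TPM in spleen. Ccl3 had 479 to 7165 TPM in barrier libraries and 4.93 to 73.4 TPM in the others. Of 16 measured chemokine ligand genes, 12 were called higher and 1 lower, and Cxcl1, Cxcl2, Cxcl3, Cxcl10, Ccl3 and Ccl4 were called in all 12, with a median change of 2.09 for the list. The sum of the 16 without Ccl6, an abundant eosinophil chemokine gene, ran between 4395 TPM in a skin library and 29610 TPM in a small intestine library, against 236 to 554 TPM in marrow, blood and spleen. Ccl6 itself had 2661 to 24035 TPM in barrier libraries and 5019 to 24597 TPM in the others and did not pass the test (limma, adjusted p = 0.233), and it was called higher without small intestine or without blood. The monocyte chemokine genes Ccl2 and Ccl8 were not higher in all 12 pairs because both were listed at 0 in every library of lung, marrow, blood and spleen. Ccl2 averaged 150.2 TPM in skin, and Ccl8 averaged 77.3 TPM there.

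Among receptors for chemoattractants, 7 of 14 were called higher and 5 lower, and 5 were called in each direction without small intestine. Ccrl2, a chemerin-binding receptor that does not signal like its relatives, had 61.7, 1363 and 2445 TPM in barrier libraries and 2.65, 8.32 and 16.1 TPM in the others, and Ccr1, a receptor of Ccl3 and Ccl6 products, had 215, 501 and 656 TPM in barrier libraries and 23.3, 43 and 56.6 TPM in the other libraries. These were the 2 called in all 12. S1pr4, a receptor of sphingosine 1-phosphate on blood cells, fell in all 12 pairs by sign, with 0.19, 26.3 and 50 TPM in barrier libraries and 57.2, 88.9 and 118 TPM in the other libraries and no overlap.

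**Figure D2:**
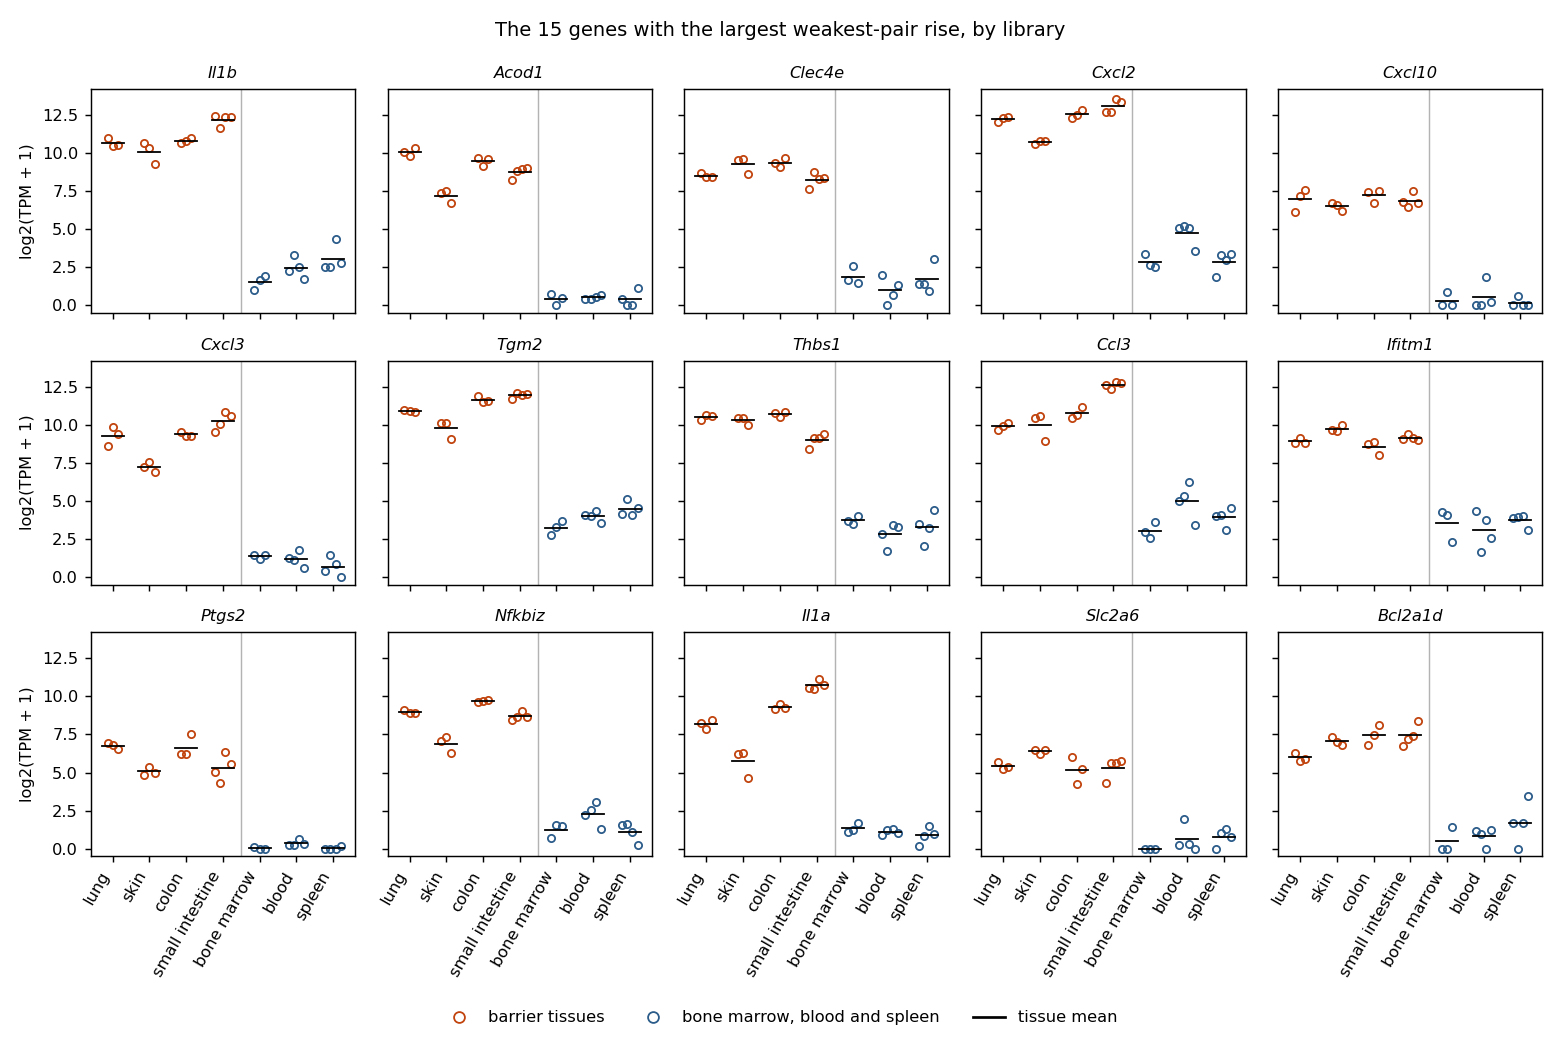
log2(TPM + 1) of the 15 genes with the largest weakest-pair rise, in each of 13 barrier libraries (red circles, left) and 11 libraries of marrow, blood and spleen (blue circles, right), with the tissue mean as a black line. In every panel all red circles lie above all blue ones, which the choice of these genes favours. The lowest barrier mean of Il1b, 1170.3 TPM in skin, compares with 8.73 TPM in spleen, the highest of the other sites.

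The NF-kappaB list had the largest share of members called in all 12 pairs of all lists. It held 28 genes, all measured, for NF-kappaB subunits, inhibitors and feedback regulators, and also Icam1, an adhesion gene. Of the 28, 23 were called higher and none lower in the contrast, 19 rose in all 12 pairs by sign and 14 were called in all 12. The median change was 2.12 (all genes tested had shares of 22.4%, 8.26% and 1.95% for the 3 counts). With tissue means as the units 13 of the 28 were higher, against 2.41% of all genes. The summed level of the list was 4415 to 11280 TPM in barrier libraries and 660 to 1176 TPM in marrow, blood and spleen. The list was chosen with earlier results of these data known, and the counts are a description.

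Subunit genes of the alternative and of the classical pathway were both called in all 12. Relb, of the alternative pathway, had 123, 163 and 344 TPM in barrier libraries and 2.26, 9.12 and 14.4 TPM in the others, and Nfkb2, its partner, had 147, 185 and 305 TPM in barrier libraries and 3.86, 12.6 and 16.7 TPM in the other libraries. They rose by 4.68 and 4.23. Rel, which encodes c-Rel, rose by 3.46, and Rela, the gene of p65, by 1.78, with 57, 86 and 122 TPM in barrier libraries and 20.3, 28.3 and 45.2 TPM in the other libraries. Nfkb1, the precursor of p50, rose in all 12 by sign but was not called in all 12 (adjusted p over the 12 pairs = 0.367, limma).

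Inhibitor genes included the most abundant member. Nfkbia, whose product retains NF-kappaB in the cytoplasm, had 1506, 3632 and 6272 TPM in barrier libraries and 206, 259 and 404 TPM in the others. Nfkbiz, an atypical nuclear IκB protein, had 75.1, 471 and 866 TPM in barrier libraries and 0.17, 1.88 and 7.23 TPM in the other libraries and the largest change of the list, 7.16 with an SE of 0.18. Tnfaip3, the gene of the deubiquitinating regulator A20, had 148, 223 and 1077 TPM in barrier libraries and 8.5, 21.2 and 56.5 TPM in the other libraries. Bcl3, Nfkbid, Nfkbie, Nfkbib, Traf1, Birc3 and Icam1 completed the 14. Traf1, a signalling adaptor, had 12.4, 64.8 and 147 TPM in barrier libraries and 0, 0.13 and 3.76 TPM in marrow, blood and spleen. Lung was its highest barrier tissue, at 126 TPM, and small intestine the lowest, at 25.8 TPM. Members that did not pass the test in the contrast included the kinase gene Ikbke, with a change of -0.39, and the deubiquitinase gene Otulin, with a change of -0.01.

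**Figure D3:**
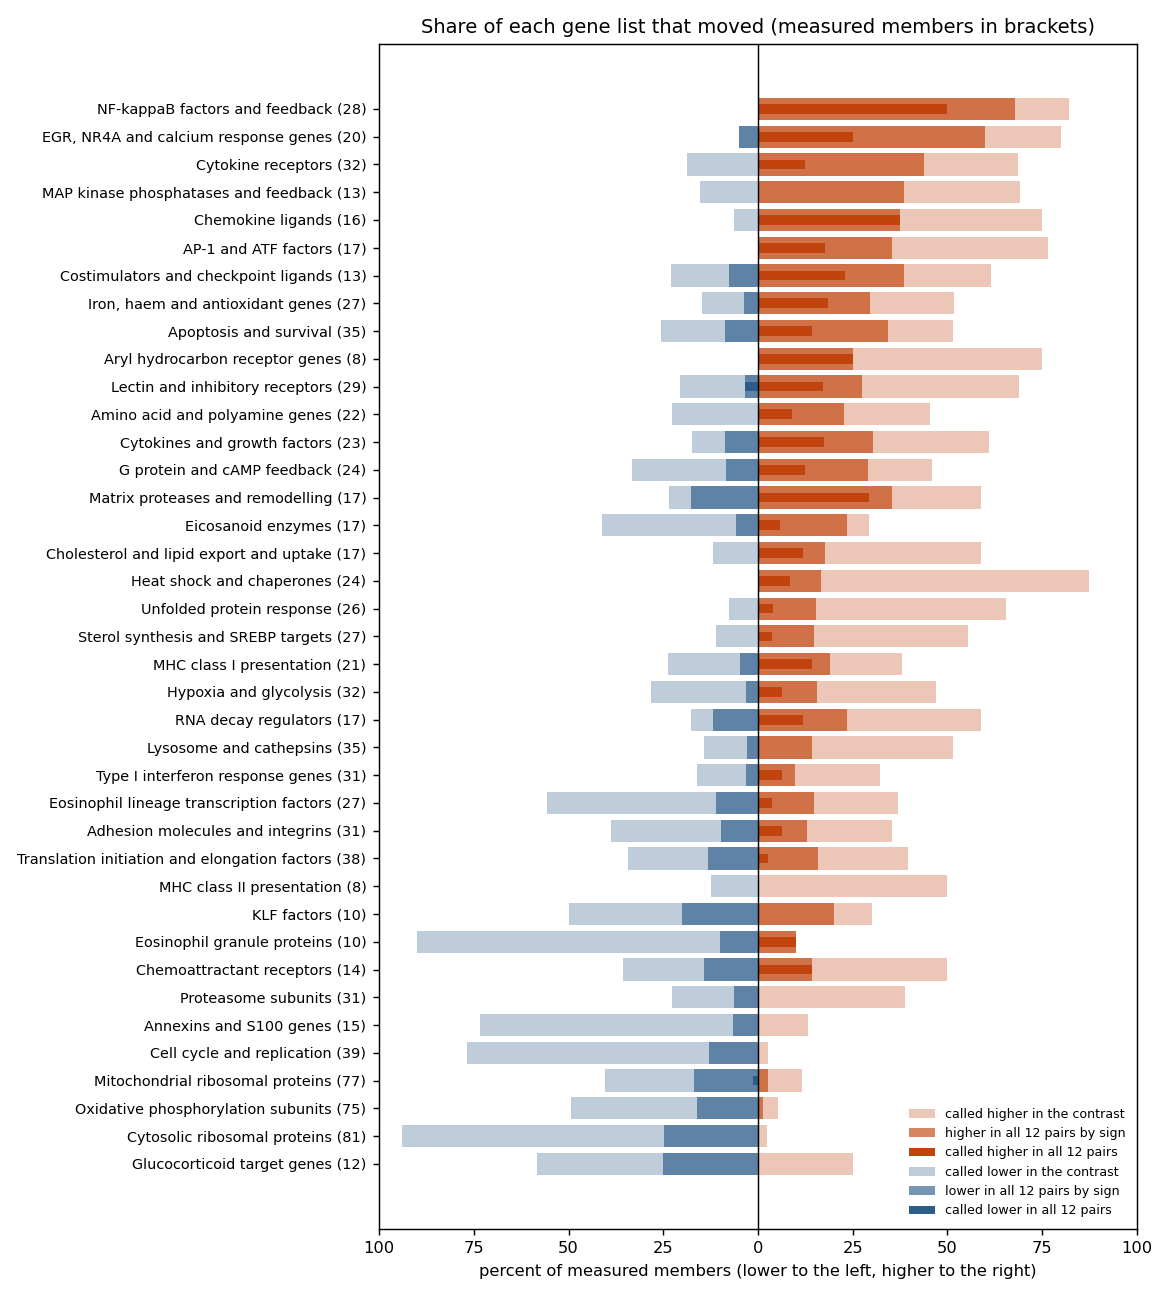
Share of the measured members of each list (percent, horizontal axis) called higher (red, right) or lower (blue, left) in the contrast, moving the same way in all 12 pairs by sign (darker) and called in all 12 (narrow bars). The 28 NF-kappaB genes reach 14 called in all 12, and the 81 cytosolic ribosomal protein genes have 76 called lower and none called in all 12.

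Immediate-early genes, which respond fast to many stimuli, rose with these. Of 17 AP-1 and ATF genes, 13 were called higher and none lower, 6 rose in all 12 by sign, and Atf3, Fosl1 and Fosl2 were called in all 12. Atf3 had 20.4, 206 and 714 TPM in barrier libraries and 0, 0.62 and 3.06 TPM in the others. Fos itself averaged 674 TPM in skin, 660.3 TPM in small intestine and 152 TPM in lung, against 638 TPM in blood, and was higher in 11 of 12 pairs. Of 20 EGR, NR4A and calcium response genes, 16 were called higher and 1 lower, 12 rose and 1 fell in all 12 by sign, and Nr4a1, Nr4a3, Ier3, Csrnp1 and Nab1 were called in all 12. Nr4a3, an orphan nuclear receptor gene, had 9.93, 145 and 234 TPM in barrier libraries and 0, 0.15 and 1.12 TPM in the others, with skin lowest of the barrier tissues at 13.6 TPM. Libraries overlapped for Egr1, which averaged 46.6 TPM in lung and 41.3 TPM in blood. The summed level of this list was 882 to 4142 TPM in barrier libraries, 138 to 144 TPM in marrow, 337 to 833 TPM in blood and 227 to 484 TPM in spleen. The part of these genes in the other rises was not tested, nor was the part of cell release in their own rise.

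Heat shock and chaperone genes gave another order of tissues. Their sum was 2154 to 2357 TPM in lung, 14060 to 24180 TPM in skin, 7322 to 11950 TPM in colon and 4475 to 11220 TPM in small intestine, against 2840 to 3098 TPM in marrow, 1511 to 1954 TPM in blood and 1701 to 1960 TPM in spleen. Of 24 members 21 were called higher and none lower, 4 rose in all 12 by sign and Dnaja1 and Dnajb6, both co-chaperone genes, were called in all 12. Hspa1a, the inducible Hsp70 gene, averaged 0.273 TPM in lung and 237 TPM in skin, against 0.9 TPM in marrow. Lung thus lay below marrow in the heat shock sum, while its NF-kappaB sum of 6733 to 7592 TPM lay above all 11 libraries of marrow, blood and spleen. Of 26 unfolded protein response genes, 17 were called higher and 2 lower, 4 rose in all 12 by sign and Atf4 was called in all 12.

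Feedback regulators of kinase and cAMP signalling rose in part. Of 13 MAP kinase phosphatase and feedback genes 9 were called higher, 2 lower, 5 rose in all 12 by sign and none was called in all 12 by limma. Dusp2, a MAP kinase phosphatase gene, had an adjusted p of 0.103 over the 12 pairs. Crem, a cAMP-responsive repressor and activator gene, had 121, 181 and 332 TPM in barrier libraries and 1.67, 5.6 and 19.2 TPM in the others. Pde4b, the phosphodiesterase gene that limits cAMP, rose by 2.78 and Gem by 3.80, and these 3 of 24 members of the G protein and cAMP list were called in all 12. In that list 11 were called higher and 8 lower, with a median change of 0.13, and Rgs19, a regulator of G protein signalling, and the prostaglandin receptor gene Ptger4 fell in all 12 by sign. Zc3h12a and Btg2, which act in mRNA decay, rose by 3.28 and 2.67 and were called in all 12. Of the 17 genes of that list 10 were called higher and 3 lower.

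Acod1 (chr14:103046977-103056573), which encodes the enzyme that makes itaconate, had 105, 518 and 1253 TPM in barrier libraries and 0, 0.34 and 1.2 TPM in marrow, blood and spleen. Lung was highest, at 1069.8 ± 179 TPM, and skin lowest, at 149 ± 39 TPM (SD, n = 3 each), so that the order of barrier tissues was not that of Il1b. Its change was 8.59 with an SE of 0.15 (limma, adjusted p = 5.53e-24). Ptgs2, the inducible cyclooxygenase gene, had 18.8, 71.7 and 182 TPM in barrier libraries and 0, 0.06 and 0.54 TPM in the other libraries, and Slc2a6, a sugar transporter gene, had 17.6, 49.1 and 88.9 TPM in barrier libraries and 0, 0.16 and 2.92 TPM in the other libraries. Of 17 eicosanoid genes 5 were called higher and 7 lower, beside 22.4% and 31.1% of all genes. Their median change was -0.02, and Ptgs2 was the 1 called in all 12. The balance of this list turned without lung, to 6 higher and 4 lower.

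Surface receptors for microbial and damaged-cell ligands followed. Clec4e (Mincle) and Clec4d lie in 1 gene cluster and encode receptors that bind glycolipids. Clec4e had 194, 406 and 803 TPM in barrier libraries and 0, 1.67 and 7.11 TPM in the others, and skin and colon were highest at 641 and 663 TPM. Clec4d rose by 5.36. The inhibitory receptor genes Lilr4b and Lilrb4a had 956 to 3680.2 TPM and 448 to 1799.8 TPM in barrier libraries, against 82.3 to 265 TPM and 39.6 to 124 TPM in the others, and since they are near-identical neighbours their separate values are uncertain. Of 29 lectin and inhibitory receptor genes 20 were called higher and 6 lower, 5 were called higher in all 12 and Clec12a was called lower in all 12.

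Survival and cell cycle arrest genes were among the rises. Bcl2a1b had 532, 829 and 1554 TPM in barrier libraries and 3.88, 32.8 and 69 TPM in the others, and Bcl2a1d had 53.8, 126 and 337 TPM in barrier libraries and 0, 1.25 and 9.94 TPM in the other libraries. Both encode A1 proteins, which protect from apoptosis, and because the A1 copies are nearly identical the split between them is uncertain. Bcl2l11, which encodes the death-promoting protein BIM, also rose, by 3.40, with 18.6, 54.8 and 93.5 TPM in barrier libraries and 1.96, 5.14 and 9.39 TPM in the other libraries. Cdkn1a, the gene of the cell cycle inhibitor p21, had 122, 677 and 2052 TPM in barrier libraries and 9.76, 19.7 and 38.4 TPM in the other libraries. Of 35 apoptosis and survival genes 18 were called higher and 9 lower, and 12 rose and 3 fell in all 12 by sign. The pro-apoptotic genes Bad and Bak1 and the apoptosome gene Apaf1 were the 3 that fell, by 1.09, 0.90 and 1.38.

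Costimulatory and checkpoint ligands rose in part. Cd80, a ligand of CD28, had 47.6, 142 and 259 TPM in barrier libraries and 0.42, 6.16 and 14.3 TPM in the others, and Cd274, the gene of PD-L1, had 16.2, 56.3 and 252 TPM in barrier libraries and 0.4, 3.08 and 6.42 TPM in the other libraries with small intestine highest at 199.7 TPM. Pdcd1lg2 (PD-L2) was the third of 13 genes called in all 12. Of the 13, 8 were called higher and 3 lower, and Cd47, a signal that restrains phagocytosis, fell in all 12 by sign. Of 8 measured MHC class II genes 4 were called higher and 1 lower, and none moved the same way in all 12. Cd74, the invariant chain gene, averaged 44.7 TPM in lung and 171 TPM in small intestine, against 111 TPM in spleen. Without blood 2 of the 8 were called higher and 3 lower. The MHC class II sum was 130 to 712 TPM in small intestine, against 241 to 480.0 TPM in spleen. The 4 measured B and plasma cell genes summed to 146 to 1094 TPM in small intestine and 40.6 to 100.2 TPM in the other barrier libraries, against 64.1 to 230.1 TPM in spleen and 53.2 to 79.6 TPM in marrow and blood. The part of B cells in these values was not tested. Of 21 MHC class I genes 8 were called higher and 5 lower, beside 22.4% and 31.1% of all genes, and without bone marrow 5 higher and 6 lower. H2-K1 rose by 1.46 and was called in all 12, and the immunoproteasome gene Psmb8 fell in all 12 by sign.

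Of 17 genes of matrix and protease control 10 were called higher and 4 lower, and 5 were called higher in all 12, while Timp2, Adam10 and Adam15 fell in all 12 by sign. Tgm2, the transglutaminase gene that cross-links proteins, had 519.9, 2867 and 4343 TPM in barrier libraries and 5.87, 15.7 and 33.8 TPM in the others. Thbs1, the gene of the matrix protein thrombospondin 1, had 337, 1363 and 1779 TPM in barrier libraries and 2.22, 9.63 and 19.6 TPM in the other libraries. Serpinb2, a serine protease inhibitor gene, rose by 4.84 and was highest in colon, at 3958 TPM.

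Iron and amino acid transport genes were among the rises. Fth1, the ferritin heavy chain gene, had 5286, 26199.6 and 47940.5 TPM in barrier libraries and 992, 2189 and 2436 TPM in the others. Lung was the lowest barrier tissue at 5443 TPM, and small intestine reached 37473 TPM. Slc11a1, the phagosomal metal transporter gene NRAMP1, rose by 4.21 and Slc7a11, the cystine transporter gene, by 4.71. Of 27 iron, haem and antioxidant genes 14 were called higher and 4 lower, with 5 called in all 12. Hif1a, the hypoxia factor gene, had 91.6, 133 and 274 TPM in barrier libraries and 13.6, 22.2 and 32.2 TPM in the other libraries and was called in all 12, as was the lactate exporter gene Slc16a3. Of the 32 hypoxia and glycolysis genes together 15 were called higher and 9 lower, beside 22.4% and 31.1% of all genes. Of 27 sterol genes 15 were called higher and 3 lower, and Insig1 and Cyp51, which act in sterol regulation and synthesis, were each higher in 10 of 12 pairs. Skin was their lowest barrier tissue, at 2.25 and 4.52 TPM. Of 31 interferon response genes 10 were called higher and 5 lower, beside 22.4% and 31.1% of all genes. By sign 3 of them rose in all 12, beside 8.26% of all genes, and Cxcl10 and Ifitm1 were the 2 called in all 12.

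The 8 genes called lower in all 12 pairs had a median change of -1.54. Clec12a (chr6:129342691-129365303), an inhibitory receptor gene for uric acid crystals, had 4.16, 96.5 and 129 TPM in barrier libraries and 207, 248 and 429.9 TPM in the others and fell by 2.26. Small intestine was its lowest site, at 6.87 ± 3.94 TPM (SD, n = 4), and in the weakest pair, lung against blood, it differed by -0.95. With tissue means as the units it did not pass (adjusted p = 0.203, limma). Riox1, a ribosomal oxygenase gene, had 0.14, 4.32 and 8.39 TPM in barrier libraries and 15.4, 22.4 and 32.1 TPM in the other libraries, and Hes6, a transcription factor gene of the Hes family, had 2.33, 8 and 19.1 TPM in barrier libraries and 27.1, 37.3 and 43.9 TPM in the other libraries. These 2 had the largest weakest-pair falls, of 1.71 and 1.34.

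The other 5 ranged from a fall of 0.84 (Twf2, a twinfilin gene) to 1.70 (Tsc22d4). Smc3, a cohesin subunit gene, had 4.42, 8.73 and 14.2 TPM in barrier libraries and 25.8, 27.1 and 35.6 TPM in the others. Mrpl57 encodes a mitochondrial ribosomal protein and had 34.4, 65.4 and 81.9 TPM in barrier libraries and 106, 164 and 194 TPM in the other libraries. Lamtor4, a subunit of the lysosomal complex that recruits mTORC1, had 43.6, 71.2 and 92.3 TPM in barrier libraries and 119, 166 and 255 TPM in the other libraries. None of the 8 overlapped between the sides, which the rule that chose them favours. The count of 8 rests on single libraries. It was 4 without marrow library 3 or without blood library 2, 5 without marrow library 1 or 2, blood library 1 or 3, skin library 2 or colon library 1 or 4, and 12 without skin library 4.

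**Figure D4:**
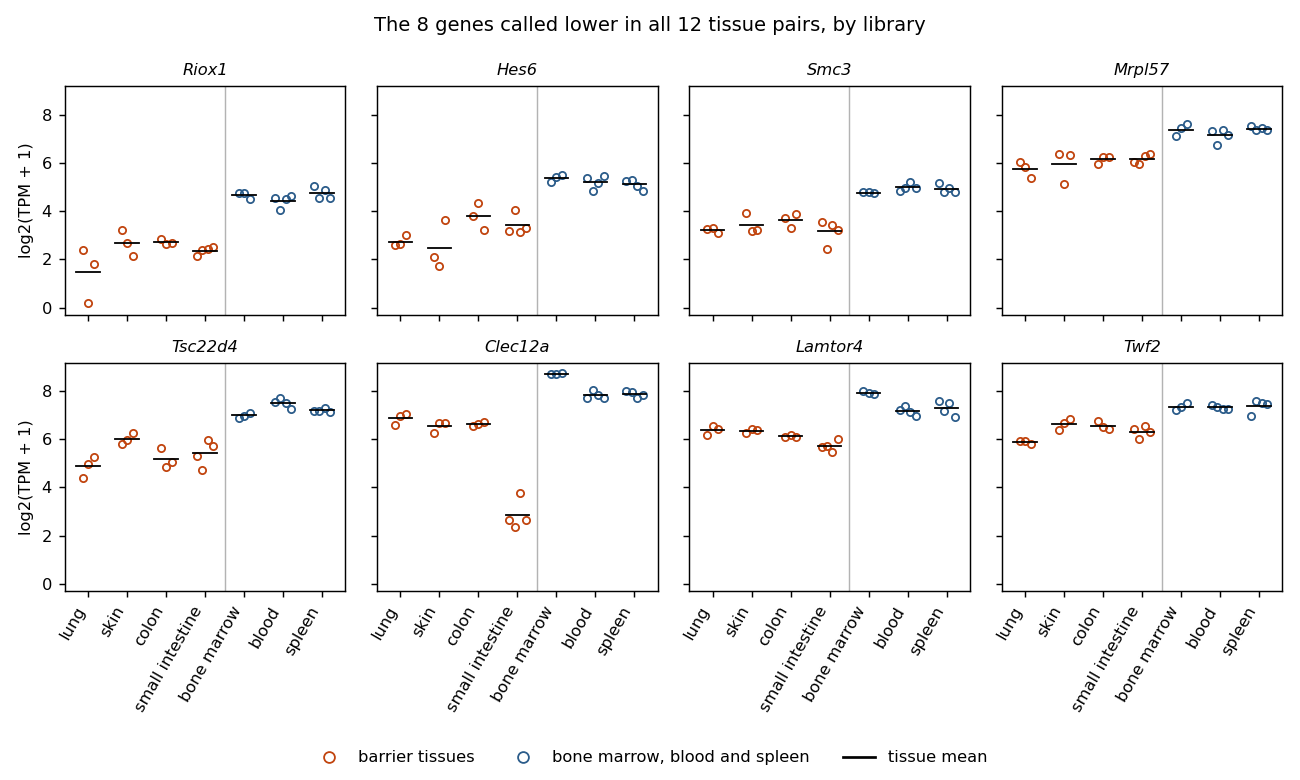
log2(TPM + 1) of the 8 genes called lower in all 12 pairs, in 13 barrier libraries (red circles, left) and 11 libraries of marrow, blood and spleen (blue circles, right), with tissue means as black lines. All red circles lie below all blue ones in every panel, which the choice of these genes favours, and Clec12a is lowest in small intestine at 6.87 TPM.

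Granule protein genes had a median change of -4.32 but did not move uniformly. Ear1, an eosinophil-associated ribonuclease gene, had 0, 12 and 386 TPM in barrier libraries, against 74.6, 1948 and 31430.4 TPM in marrow, blood and spleen, and fell by 7.17. Lung averaged 332 TPM, against 26488 TPM in marrow, 173 TPM in blood and 4684 ± 5219 TPM in spleen (SD, n = 4), so that lung lay above blood. Ear1 and Ear2 are near-identical, and their separate values are uncertain. Prg2, the gene of major basic protein, averaged 185 TPM in lung, 205 TPM in skin, 83.2 TPM in colon and 55.1 TPM in small intestine, against 72326 TPM in marrow and 78 TPM in blood. Epx, the eosinophil peroxidase gene, had 0 to 1.7 TPM in barrier libraries, against 1520.2 TPM on average in marrow and 1.29 TPM in blood.

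Of 10 measured granule genes 9 were called lower and Srgn higher, and Rnase12 was the 1 that fell in all 12 by sign. With tissue means as the units 1 was lower and 1 higher. Without Srgn and Cd63, which are not particular to eosinophil granules, the summed level was 1010.0 to 1224 TPM in lung and 67.4 to 336 TPM in skin, colon and small intestine, against 114800 to 160800 TPM in marrow, 403 to 773 TPM in blood and 6439 to 49520 TPM in spleen. Blood thus lay below lung and above the other 3 barrier tissues. The first spleen library stood apart, with 19974 TPM of Prg2 against 2911 to 4539 TPM in the other 3. Not set against the median gene, the Prg2 log2 change was -4.85 with all libraries, -4.64 without that library and -2.60 without marrow.

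Rnase12, a gene of the ribonuclease A family, had 0, 10.1 and 27.3 TPM in barrier libraries and 31.2, 82.2 and 259.9 TPM in marrow, blood and spleen, with no overlap, and fell by 3.92. Srgn, which encodes the proteoglycan serglycin that packs granule contents, moved the other way and was called higher in all 12, with 14219, 20059.5 and 23973 TPM in barrier libraries and 2000.3, 4189.6 and 5573 TPM in the other libraries.

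Cell cycle genes were mostly called lower. Of 39 measured 30 were called lower and 1 higher, and 5 fell in all 12 by sign, none of them called in all 12. Ube2c, a ubiquitin carrier of mitosis, had 0, 0.77 and 9.04 TPM in barrier libraries and 3.73, 16.7 and 107 TPM in the others and fell by 3.29. Its mean was 90.2 TPM in marrow, 11.1 TPM in blood and 12.7 TPM in spleen. Rrm2, a subunit gene of ribonucleotide reductase, averaged 1.6 TPM in colon and 1.12 TPM in small intestine, against 119.6 TPM in marrow and 0.89 TPM in blood. Without bone marrow 11 of the 39 were called lower and 8 higher.

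Markers of other cells moved with these falls. Precursor genes of granulocytes, with 15 measured, had 13 called lower, and their sum was 146 to 457 TPM in barrier libraries, 12760 to 18350 TPM in marrow, 351 to 484 TPM in blood and 526 to 820 TPM in spleen. Mpo, the myeloperoxidase gene, averaged 1.48 TPM in small intestine and 2575 TPM in marrow. Without marrow 2 of the 15 were called in each direction. Of 16 neutrophil genes 12 were called lower and 2 higher, with S100a8 at 0 to 40.6 TPM in barrier libraries, against 16464 TPM on average in marrow. Retnlg, a resistin-like gene of myeloid cells, averaged 70436 TPM in lung, 7364 TPM in skin, 12525 TPM in colon and 6941 TPM in small intestine, against 17778 TPM in marrow, 61058 TPM in blood and 56426 TPM in spleen. The sum of the 16 neutrophil genes was 74530 to 82210 TPM in lung and 4508 to 19130 TPM in skin, colon and small intestine. In marrow, blood and spleen it was 52860 to 68530 TPM. Without Retnlg and G0s2 the neutrophil sum was 203 to 731 TPM in barrier libraries, 43420 to 46480 TPM in marrow, 480 to 661 TPM in blood and 1109 to 9652 TPM in spleen.

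Haemoglobin and other erythroid genes were highest in blood. The erythroid and platelet sum was 87.8 to 29220 TPM in barrier libraries, against 7882 to 18590 TPM in marrow, 39280 to 119300 TPM in blood and 95.6 to 39760 TPM in spleen. It varied widely within a tissue, with 98.3 to 17840 TPM in small intestine. Of 14 genes 11 were called lower and 6 fell in all 12 by sign. The part of precursors, neutrophils and erythroid cells in the falls was not tested.

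Markers of cells that reside in barrier tissues were examined beside the rises. The macrophage genes C1qa and C1qb had 0 to 40.4 TPM and 0 to 48.8 TPM in barrier libraries and 0 to 36.8 TPM and 0 to 20.3 TPM in the others, and neither passed the test (limma, adjusted p = 0.937 and 0.0757). Of the 19 macrophage and monocyte genes listed 8 were measured, of which 3 were called higher and 2 lower, and without skin 2 were called higher and 3 lower. Their sum without the monocyte gene Ly6c2 was 123 to 352 TPM in barrier libraries and 55.6 to 182 TPM in marrow, blood and spleen. By tissue this sum was 122.5 to 146.5 TPM in lung, 251 to 352.4 TPM in skin, 124.2 to 150.6 TPM in colon and 159.8 to 239.5 TPM in small intestine. Of 5 measured stroma and endothelium genes 4 were called higher, and 0 rose in all 12 by sign. Their sum was 26.6 to 37.5 TPM in lung, 21.4 to 71.9 TPM in skin and 31.8 to 70.4 TPM in marrow, blood and spleen. It was 106 to 168 TPM in colon and 173 to 222 TPM in small intestine. Of 4 measured gut epithelium genes 2 were called higher and 1 lower, with a sum of 6.74 to 132 TPM in barrier libraries and 32.1 to 76.9 TPM in the others, and Epcam had 0 to 14.8 TPM in barrier libraries and 0 to 0.51 TPM in the others. Of 3 keratinocyte genes 1 was called higher and 2 lower, and of 2 lung epithelium genes none was called higher and 1 lower. None of the 14 genes of the T cell list was measured. Of 6 mast cell and basophil genes 1 was called higher and 5 lower, but without bone marrow 1 was called higher and 0 lower. Mcpt8, a basophil protease gene, was listed at 0 in every library but those of marrow, and Cpa3, a mast cell protease gene, had 0 to 21 TPM in barrier libraries and 0 to 24.2 TPM in the others. Hdc, which makes histamine and is on the same list, rose in all 12 by sign, with 118 to 518 TPM in barrier libraries and 3.13 to 81.5 TPM in the other libraries. The part of these other cells in the rises was not tested.

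**Figure D5:**
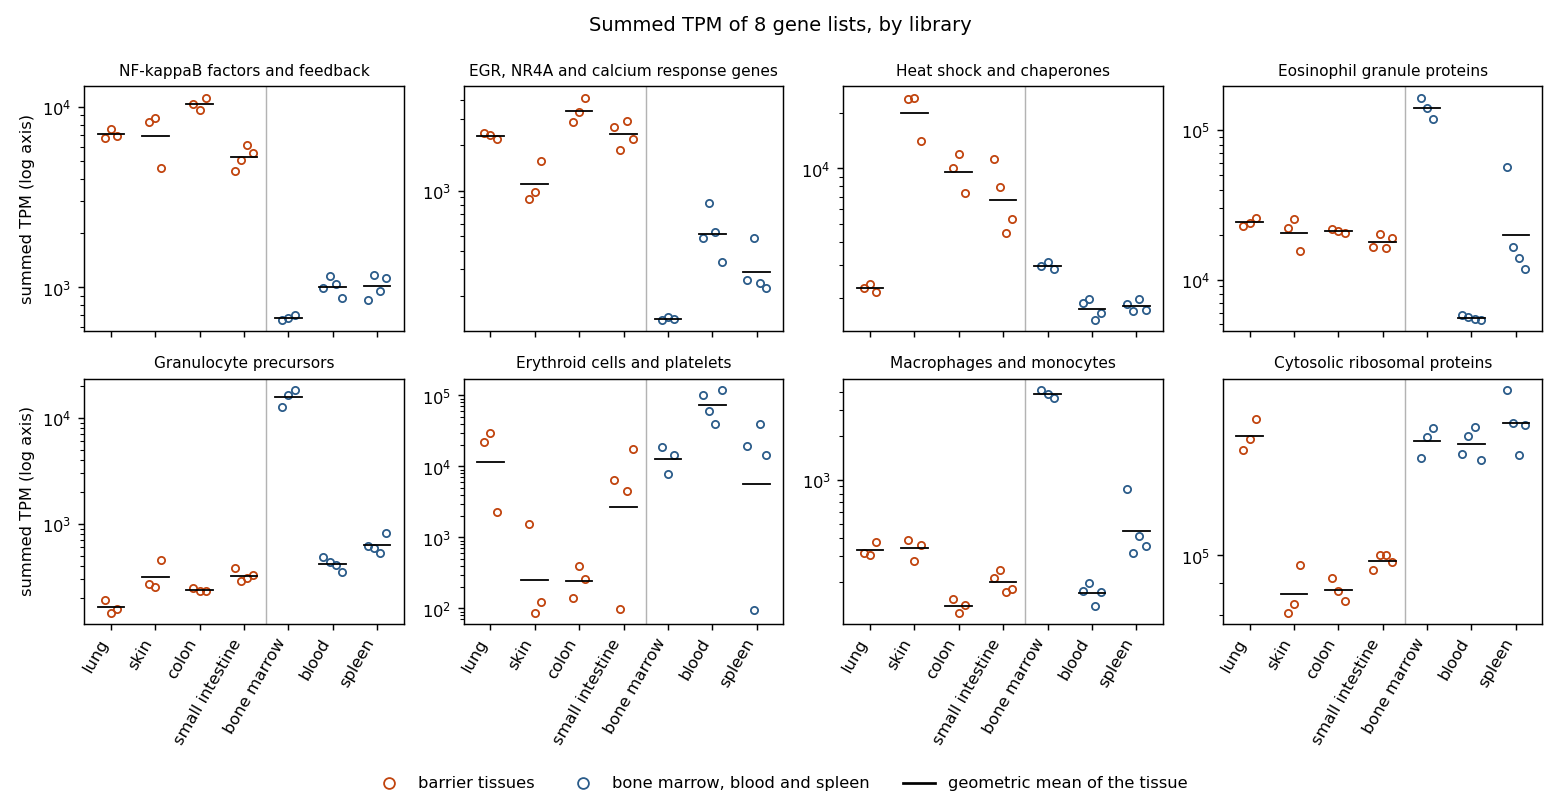
Summed TPM of 8 gene lists (log axis) in 13 barrier libraries (red circles, left) and 11 libraries of marrow, blood and spleen (blue circles, right), with the geometric mean of each tissue as a line. The NF-kappaB sum separates the sides (4415 to 11280 TPM in barrier libraries against 660 to 1176 TPM in the others), whereas granule protein and granulocyte precursor genes stand out in marrow and erythroid genes in blood.

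Cytosolic ribosomal protein genes were mostly called lower, by small amounts. Of 81 cytosolic ribosomal protein genes 76 were called lower and 2 higher, with a median change of -0.45, and 20 fell in all 12 by sign and none was called in all 12. Their sum was 149000 to 167100 TPM in lung and 80640 to 100000 TPM in skin, colon and small intestine, against 143400 to 186700 TPM in marrow, blood and spleen. The lung sum thus lay within the range of marrow, blood and spleen, and those of the other 3 barrier tissues lay below it. With tissue means as the units none of the 81 was called, and with median-ratio scaling none fell in all 12 by sign, against 43 with quantile normalization. Of 77 mitochondrial ribosomal protein genes 31 were called lower and 9 higher, with a median change of -0.19, beside 31.1% of all genes called lower. Of 75 oxidative phosphorylation genes 37 were called lower and 4 higher, with a median change of -0.08, against 59 and 2 with quantile normalization and none in either direction with tissue means. Mrps35 had 15.1, 33.4 and 59.5 TPM in barrier libraries and 80, 92.4 and 126 TPM in the others, with no overlap.

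Regulators of lineage and trafficking were mixed. Of 27 transcription factor genes of the eosinophil lineage 10 were called higher and 15 lower, a balance that moved to 8 and 8 without marrow and 10 and 10 without lung. Trib1, a pseudokinase gene needed for eosinophil identity in mice, was called higher in all 12 with 91.8, 224 and 326 TPM in barrier libraries and 7.3, 15.6 and 27.8 TPM in the other libraries. Cebpb rose in all 12 by sign, and the precursor factors Gfi1 and Ikzf2 fell in all 12 by sign, by 1.52 and 1.55. Of 15 annexin and S100 genes 11 were called lower and 2 higher. Anxa1, the annexin A1 gene, had 2.81, 56.7 and 184 TPM in barrier libraries and 149, 247 and 563 TPM in the others. Of 31 adhesion genes 11 were called higher and 12 lower, beside 22.4% and 31.1% of all genes, and the balance turned without blood, with 12 and 8. Fut7, which makes selectin ligands, fell in all 12 by sign, and so did Icam2 and Itga6. Of 12 glucocorticoid target genes 7 were called lower and 3 higher, with Tsc22d3 at 86 to 649 TPM in barrier libraries and 138 to 1609 TPM in the others.

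Genes at the border of the sign rule had a small difference or a tie at 0 TPM in at least 1 pair, and their other pairs could differ widely. Just inside on the higher side were Tmbim6, Lsm12 and Map1s, and Tmbim6 had 371, 435 and 549 TPM in barrier libraries and 313, 370.0 and 443 TPM in the others. Just outside were Snai1, Ccl2 and Ccl8, each listed at 0 in all libraries of marrow, blood and spleen and of at least 1 barrier tissue. On the lower side Tcea2, Pdcd2l and Snrpe lay just inside, and Snrpe, a splicing factor gene, had 309, 407 and 482 TPM in barrier libraries and 398, 496 and 745 TPM in the other libraries. Mcpt8, Numb and Cyb561a3 lay just outside, and Numb, an adaptor gene of Notch signalling, had 4.44, 9.7 and 34.8 TPM in barrier libraries and 15.3, 21 and 31.8 TPM in the other libraries. Of the 810 rises by sign 616 had a weakest pair under 1 on the log2 scale, and of the 976 falls 937.

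The 191 uniform rises did not share 1 order of tissues. The highest barrier tissue was small intestine for 69 genes, colon for 50, skin for 44 and lung for 28, and the lowest was skin for 76, lung for 59, small intestine for 40 and colon for 16. Among the other sites the lowest was marrow for 127 genes, blood for 36 and spleen for 28. These orders describe tissue means and were not tested.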

How the data were processed

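Total RNA of sorted eosinophils was sequenced with Smart-seq2 libraries, per the labels. The authors deposited values in TPM, per the file headers and labels, and the submitters' processing notes name cutadapt 2.10, STAR 2.7.5c, RSEM 1.3.3 and the mm10 build. The tissue table held 9844 genes, and its columns summed to 796048 to 890768 TPM, so values of genes not in the table are missing from the sums. Counts and depth were not analysed here, and the precision of each TPM is unknown. Within a tissue the lowest correlation between libraries on the log2 scale was 0.919 to 0.971.

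Values were taken as log2(TPM + 1) for the 9806 genes at 1 TPM or more in at least 3 of 24 libraries and fitted with limma 3.58.1 in R 4.3.3, with 1 mean per tissue and a trend in the prior variance. The contrast weighed each tissue equally within its side. A gene called in all 12 pairs passed on the largest of its 12 p-values after Benjamini-Hochberg adjustment at 0.05. Tables and figures used Python 3.11.15 with pandas 2.3.3, numpy 2.4.6 and matplotlib 3.10.9. Gene coordinates came from GENCODE M21, in which 9689 symbols were found once, and promoters from RefSeq.

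The members and gene lists were chosen with earlier results of these data known. Genes named, at 10 TPM or more on the higher side, were the 15 largest weakest-pair rises, the 8 falls called in all 12, the 8 largest changes in each direction among genes called in all 12, up to 4 per list by size of change, and 3 just inside and outside the sign rule in each direction. Further list members, among them Nfkb2, Rel, Rela, Nfkbia, Srgn, Rnase12 and the identity genes, were named after their values were seen. Whether replicate numbers pair the libraries could not be settled. Of 62 pairs of same-numbered libraries in different tissues none had a correlation of deviations over 0.1, but neither did any of 184 pairs with other numbers. The highest correlation was 0.0877 among the former and 0.0541 among the latter. This cutoff therefore cannot exclude pairing. Alternatives were other pseudocounts, filters, scalings, variance priors and weights, a replicate block, and leaving out each tissue or library.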

Additional observations from a re-analysis of the deposited data

Results flagged for a closer look

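Groups of 4 libraries (small intestine, blood and spleen) were searched for a library far from the other 3, over the 24 genes with the largest uniform changes. Of 72 groups 11 had one, and chance gives about 1 in 20. None of these values crossed between the sides.

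In barrier tissues, the second small intestine library had 3235.75 TPM of Il1b, against 5149.62 to 5478.94 TPM in the other 3, and 15.53 TPM of Hes6, against 7.86 to 8.76 TPM. The third small intestine library had 12.72 TPM of Clec12a, against 4.16 to 5.3 TPM in the other 3.

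In blood, the fourth library had 10.82 TPM of Cxcl2, against 33.21 to 36.33 TPM. The third had 2.61 TPM of Cxcl10, against 0 to 0.18 TPM, and the second had 2.92 TPM of Slc2a6, against 0 to 0.23 TPM.

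In spleen, the third library had 19.82 TPM of Il1b, against 4.64 to 5.71 TPM. The fourth had 7.11 TPM of Clec4e, against 0.94 to 1.67 TPM, and 7.61 TPM of Ifitm1, against 13.76 to 14.71 TPM. It also had 0.13 TPM of Ptgs2, which was listed at 0 in the other 3, and the second had 0.52 TPM of Cxcl10, which was listed at 0 in the other 3.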

How the results depend on the processing

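The 191 rises called in all 12 pairs numbered 153 to 201 under the other pseudocounts, filters, scalings and variance priors. Not all of these were among the 191. With median-ratio scaling 201 were called, of which 169 were among the 191, and with quantile normalization 160 of 177 were. The rises numbered 345 without lung, where fewer pairs had to pass. The 8 falls were less stable, with 5 at a pseudocount of 0.1, 24 with quantile normalization and 3 without a variance trend. With 1 library left out the falls numbered 4 to 12. With a tissue left out fewer pairs had to pass, which makes the rule easier to meet. The falls then numbered 96 without lung, 37 without skin, 17 without colon, 15 without small intestine, 86 without bone marrow and 20 without blood. By sign in all pairs left, 1675 genes were higher without lung and 1622 lower without bone marrow. With tissue means as the units 236 genes were higher and 44 lower, in the contrast and by sign, and with equal weight per library 1889 were lower in the contrast. Neither of these gave a value for calls in all 12. Of the calls in the contrast 41.8% were higher, against 53.8% without lung, 34.1% with ribosomal protein genes left out and 84.3% with tissue means. The cause of these shifts was not tested. The 24 genes with the largest uniform changes kept their direction and contrast call under every alternative run, except 3 with tissue means. The call in all 12 pairs was not part of this check. Of the 8 falls, 5 kept that call at a pseudocount of 0.1 and 3 without a variance trend. Over 264 named genes, directions reversed for Tmbim6 (-0.0321) and Siglecf (-0.298) with quantile normalization, for Pecam1 (-0.161) and Ccl6 (0.486) without small intestine, for Ms4a6c (0.00974) and Cd63 (0.127) without bone marrow, and for Ccl6 (0.273) without blood. With the replicate number as a block, 2186 genes were higher and 2959 lower, with 182 and 6 called in all 12. Of the 191 rises 179 were kept, and of the 8 falls 4. Of 24 libraries 11 correlated best with a library of their own number, though only 62 pairs between tissues shared a number and 184 did not. The lack of depth limits what can be said of genes near 0 TPM.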
